A study of Mus musculus with 13 samples.

Results

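The genes described here are 9 hormone receptors and hormone-sensing luminal genes of the mammary gland: Esr1, Pgr, Prlr, Esrrg, Foxa1, Gata3, Cited1, Tnfsf11 and Stat5a. They were taken by symbol from a table of read counts for 24421 genes, and all 9 were found and passed the filter on low counts. In the mammary epithelium, a minority of luminal cells carry the estrogen receptor and the progesterone receptor and relay the hormone signal to their neighbors through secreted factors such as RANK ligand. FOXA1 and GATA3 open chromatin for the estrogen receptor in these cells, and the progesterone receptor gene is a classical estrogen receptor target. Prolactin acts through its own receptor and STAT5, which drives milk protein genes in the secretory (alveolar) luminal cells.

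Sequenced RNA came from 11 spontaneous tumors of the mammary gland and from 2 glands free of cancer. The female mice were FVB/N-TgN animals (MMTV-HER2/neu, line 202Mul/J), in which the mouse mammary tumor virus promoter drives rat HER2/neu in the breast epithelium. All groups carried this transgene, although the labels give the genotype as wild type, and the ages of the mice at collection are not given. The 3 primary untreated tumors and the 2 glands came from untreated mice. The 3 primary stavudine tumors developed in mice that drank the nucleoside reverse transcriptase inhibitor stavudine (STV) at 1 mg/mL. In the paper's design, mice given stavudine before tumors appeared started at 2 months of age. The 3 recurrent 17-DMAG tumors regrew after a complete response to 17-DMAG (alvespimycin), an HSP90 inhibitor injected at 20 mg/kg, 3 times per week. The 2 recurrent 17-DMAG plus stavudine tumors regrew under the same drug in mice kept on stavudine. Whether stavudine began at 2 months of age or once tumors had appeared is not given for these 2. The labels describe individual tumors but do not say whether any shared a mouse, so p-values measure the spread between these samples.

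Library totals ran from 39921388 to 56887708 counts. Values are CPM, counts scaled to a total of 1000000 per library with a TMM factor, which corrects for a few genes taking a large share of the reads. The factor was 0.493 in gland replicate 2 and 0.999 to 1.12 in the other libraries, so the order of tumors and that gland can depend on it. A level of 3 counts, the upper limit that a count of 0 allows, corresponded to between 0.0587 and 0.107 CPM. The glands differed from each other in milk protein genes and T cell markers, which bears on every comparison with them. Summed milk protein genes were at 28051 CPM in gland replicate 1 and 764677 CPM in gland replicate 2, against 4603 to 23365 CPM in tumors. T cell markers were at 143.9 CPM in gland replicate 1, 8.81 in gland replicate 2 and 4.97 to 11.7 in tumors, while adipocyte markers were at 1076 and 1077 CPM in the glands and 114 to 223 in tumors. The luminal keratin genes Krt8 and Krt18 were above 200 CPM in every library, so luminal epithelium was present throughout. In bulk tissue, fewer cells of a type and less RNA per cell cannot be told apart.

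The 9 genes fell into 2 ranges of level. Levels were counts per kb of the longest GENCODE M21 transcript with a RefSeq match, scaled to the same total of 1000000 within each library. The tumor medians were 415 for Gata3, 121 for Stat5a, 52.9 for Prlr, 31.3 for Esrrg and 24.0 for Esr1. The other 4 were below 1, at 0.536 for Cited1, 0.233 for Pgr, 0.203 for Foxa1 and 0.0614 for Tnfsf11. Among all genes with a length, 1.06% had a higher tumor median than Gata3 and 31.4% a higher one than Esr1, while 63.4% to 72.2% were above the 4 low genes. This scale has no TMM correction, so the milk reads of gland replicate 2 lower every other gene in it. On this scale the transcripts of the estrogen and prolactin receptors were within the upper part of the range of all genes in tumors, and those of the progesterone receptor, Foxa1, Cited1 and RANK ligand in the lower part.

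**Figure D1:**
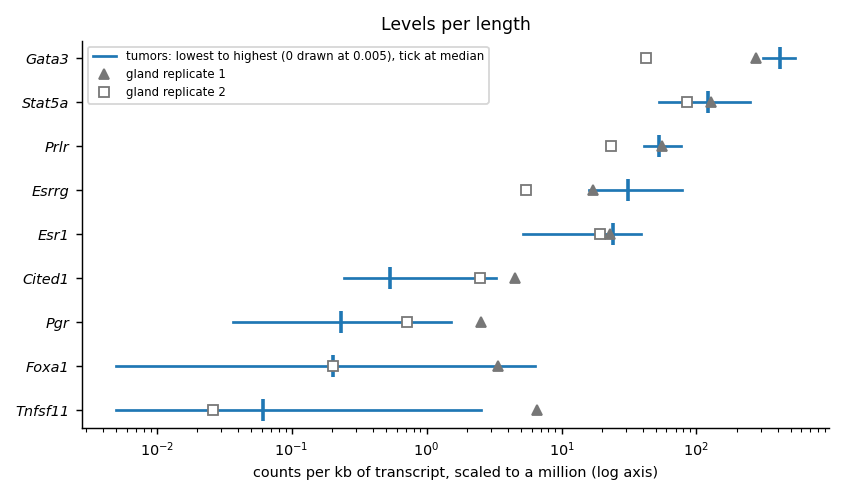
Counts per kb of transcript scaled to a total of 1000000 (log axis) for the 9 genes. Blue lines run from the lowest to the highest of 11 tumors with a tick at the median (values under 0.005 drawn there), triangles are gland replicate 1 and open squares gland replicate 2. Gata3, Stat5a, Prlr, Esrrg and Esr1 have medians of 24.0 or more, and the other 4 genes lie below 1.

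All 11 tumors were compared with the 2 glands to ask how these genes differ between tumor and tissue of origin. Gata3 was higher in tumors and Cited1 lower, and these were the 2 of 9 genes that passed an adjusted p of 0.05 by edgeR's quasi-likelihood test. Of 17135 genes tested, 275 were called higher (1.60%) and 1510 lower (8.81%). Every tumor was above both glands for Gata3, 1 of 9 genes, where 4.14% of all genes were so, and below both for Pgr and Cited1, 2 of 9, where 7.37% were. Scaled to library totals without the TMM factor, Pgr overlapped between tumors and glands. The median log2 fold change of the 9 genes was -1.16, against -0.022 over all genes. Without gland replicate 2 it was 0.052, with 5 of 9 genes above 0, and without gland replicate 1 it was -0.59.

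**Figure D2:**
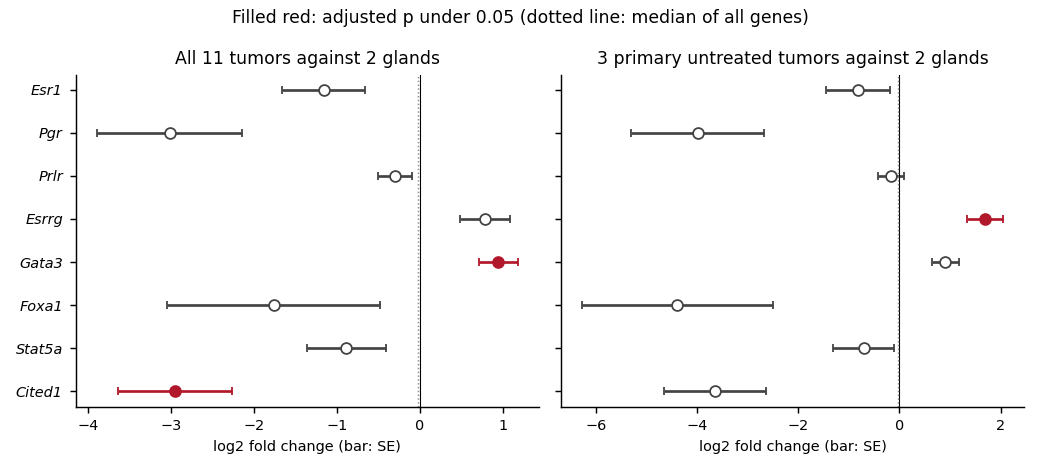
Log2 fold change with its standard error for 8 genes in 11 tumors (left) and in 3 primary untreated tumors (right) against 2 glands. Filled red points have an adjusted p under 0.05 (Gata3 and Cited1 on the left, Esrrg on the right), the dotted line is the median of all genes, and Tnfsf11 is not drawn because 8 of 11 tumors had 3 counts or fewer.

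Among the nuclear receptors, Esr1, which encodes estrogen receptor alpha (chromosome 10, 4611593 to 5005614, GRCm38), was at 43.9 and 149 CPM in gland replicates 1 and 2. It was at 38.5, 79.3 and 46.2 CPM in primary untreated, 64.7, 38.8 and 57.9 in primary stavudine, 25.2, 64.8 and 49.9 in recurrent 17-DMAG, and 39.7 and 10.0 CPM in recurrent 17-DMAG plus stavudine tumors. Every tumor was below gland replicate 2, and 6 of 11 lay between the glands. Scaled to library totals without the TMM factor, gland replicate 2 was at 73.2 CPM and the highest tumor, primary untreated replicate 2, at 79.2. The log2 fold change of -1.16 (SE 0.50, adjusted p = 0.149, edgeR) thus depended on which gland was used: it was -1.75 without gland replicate 1 (adjusted p = 0.0486) and 0.052 without gland replicate 2.

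Pgr, the progesterone receptor (chromosome 9, 8899833 to 8968611), was the receptor with the clearest separation in TMM-scaled values. The glands were at 5.27 and 6.03 CPM. Primary untreated tumors were at 0.896, 0.0815 and 0.0802 CPM, primary stavudine tumors at 3.15, 0.979 and 0.0844, recurrent 17-DMAG tumors at 1.99, 0.447 and 1.22, and recurrent 17-DMAG plus stavudine tumors at 0.274 and 0.489 CPM. All 11 tumors were below both glands, 8 of them below 1 CPM, and the lowest 3 libraries had 4 counts each. This separation depended on the TMM factor. Scaled to library totals without it, gland replicate 2 was at 2.97 CPM and primary stavudine replicate 1 at 3.43. The log2 fold change was -3.02 (SE 0.88) with an adjusted p of 0.0537 by edgeR, just outside the threshold, while DESeq2 (adjusted p = 0.0234) and limma voom (0.0187) called it. edgeR also called it without any one of primary untreated replicate 1, recurrent 17-DMAG replicate 1, or primary stavudine replicate 1 or 3, at log2 fold changes from -3.54 to -2.88. It did not without any one of the other 9 libraries, with an adjusted p of up to 0.286 and a log2 fold change of -2.84 without gland replicate 2.

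Esrrg, an orphan receptor related to the estrogen receptor that binds no known natural hormone and acts on oxidative metabolism genes (chromosome 1, 187608791 to 188214885), went the other way. It was at 27.7 and 35.9 CPM in the glands. Tumor values were 62.5, 136 and 111 CPM in primary untreated, 49.9, 55.0 and 46.5 in primary stavudine, 26.7, 35.3 and 51.4 in recurrent 17-DMAG, and 38.3 and 54.0 in recurrent 17-DMAG plus stavudine tumors. In 9 of 11 tumors it was above both glands, and the 2 exceptions were recurrent 17-DMAG replicates 1 and 2. The log2 fold change over all tumors was 0.79 (SE 0.30, adjusted p = 0.116, edgeR).

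Prlr, the prolactin receptor (chromosome 15, 10177238 to 10349180), varied little. It was at 166 and 279 CPM in the glands, at 147, 217 and 232 in primary untreated, 158, 194 and 150 in primary stavudine, 127, 156 and 138 in recurrent 17-DMAG, and 250.5 and 209 CPM in recurrent 17-DMAG plus stavudine tumors. The log2 fold change against the glands was -0.30 (SE 0.21, adjusted p = 0.354, edgeR), and it was 0.21 without gland replicate 2.

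Of the transcription factors that work with these receptors, Gata3, which specifies and maintains luminal cells (chromosome 2, 9857078 to 9890034), was at 267 and 164 CPM in the glands. It was at 508, 363 and 339 CPM in primary untreated, 526, 472 and 418 in primary stavudine, 315, 408 and 463 in recurrent 17-DMAG, and 437 and 349 CPM in recurrent 17-DMAG plus stavudine tumors. All 11 tumors were above both glands. The log2 fold change was 0.94 (SE 0.24, adjusted p = 0.0322, edgeR), and the call was lost without any one of 6 libraries. Without gland replicate 2 the value was 0.72 (adjusted p = 0.251), and without recurrent 17-DMAG replicate 2 or 3, primary stavudine replicate 1 or 2, or recurrent 17-DMAG plus stavudine replicate 1 the adjusted p lay between 0.0507 and 0.0603. Lymphocytes also express Gata3, and their markers were highest in gland replicate 1, the gland with more Gata3; the part of these cells in the gland values was not tested.

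Foxa1, the pioneer factor of the estrogen receptor (chromosome 12, 57540628 to 57546916), had the widest range of the 9 genes. It was at 3.23 and 0.785 CPM in the glands, at 0.199, 0.0408 and 0.0401 in primary untreated, 0.898, 0.870 and 0 in primary stavudine, 1.44, 0.179 and 0.525 in recurrent 17-DMAG, and 0.0196 and 6.14 CPM in recurrent 17-DMAG plus stavudine tumors. The counts behind these values ran from 0 in primary stavudine replicate 3, which allows up to 0.0633 CPM, to 301 in recurrent 17-DMAG plus stavudine replicate 2, the one tumor above both glands. No difference from the glands was detectable over all tumors (log2 fold change -1.77, SE 1.29, adjusted p = 0.377, edgeR).

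Cited1, a transcriptional coactivator of the estrogen receptor that marks hormone-sensing luminal cells (chromosome X, 102247381 to 102252181), was at 1.49 and 3.28 CPM in the glands. It was at 0.119, 0.367 and 0.0802 CPM in primary untreated, 0.322, 0.0870 and 0.169 in primary stavudine, 1.11, 0.179 and 0.294 in recurrent 17-DMAG, and 0.156 and 0.754 CPM in recurrent 17-DMAG plus stavudine tumors, from 4 to 48 counts. All 11 tumors were below both glands. The log2 fold change was -2.95 (SE 0.69, adjusted p = 0.0244, edgeR). The call was lost without gland replicate 2 (-2.19, adjusted p = 0.316) and without recurrent 17-DMAG plus stavudine replicate 1 (-2.74, adjusted p = 0.0508).

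Tnfsf11 encodes RANK ligand, the paracrine signal that progesterone induces (chromosome 14, 78277445 to 78308043). It had 218 counts in gland replicate 1 (4.40 CPM) and 2 counts in gland replicate 2. Tumors had 3, 2 and 4 counts in primary untreated, 14, 0 and 0 in primary stavudine, 76, 2 and 2 in recurrent 17-DMAG, and 0 and 0 in recurrent 17-DMAG plus stavudine tumors. Gland replicate 1 and recurrent 17-DMAG replicate 1, at 1.76 CPM, stood apart from the rest, and 8 of 11 tumors as well as the other gland were at or under 3 counts. The adjusted p was 0.0541 (edgeR) and no fold is given, since its size rested on gland replicate 1. T cells also express Tnfsf11, and T cell markers were at 143.9 CPM in gland replicate 1 and at 7.55 CPM in recurrent 17-DMAG replicate 1, within the range of the other tumors. The part of these cells in the Tnfsf11 values was not tested.

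Stat5a, the transcription factor that prolactin signaling activates (chromosome 11, 100859351 to 100885169), was at 151 and 406 CPM in the glands. It was at 254, 157 and 99.6 CPM in primary untreated, 292, 172 and 124 in primary stavudine, 79.3, 236 and 144 in recurrent 17-DMAG, and 139 and 62.0 CPM in recurrent 17-DMAG plus stavudine tumors. The tumors lay on both sides of gland replicate 1 and below gland replicate 2, and the log2 fold change was -0.89 (SE 0.48, adjusted p = 0.240, edgeR). It was 0.079 without gland replicate 2. Scaled to library totals without the TMM factor, gland replicate 2 was at 200 CPM and the highest tumor, primary stavudine replicate 1, at 318.

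**Figure D3:**
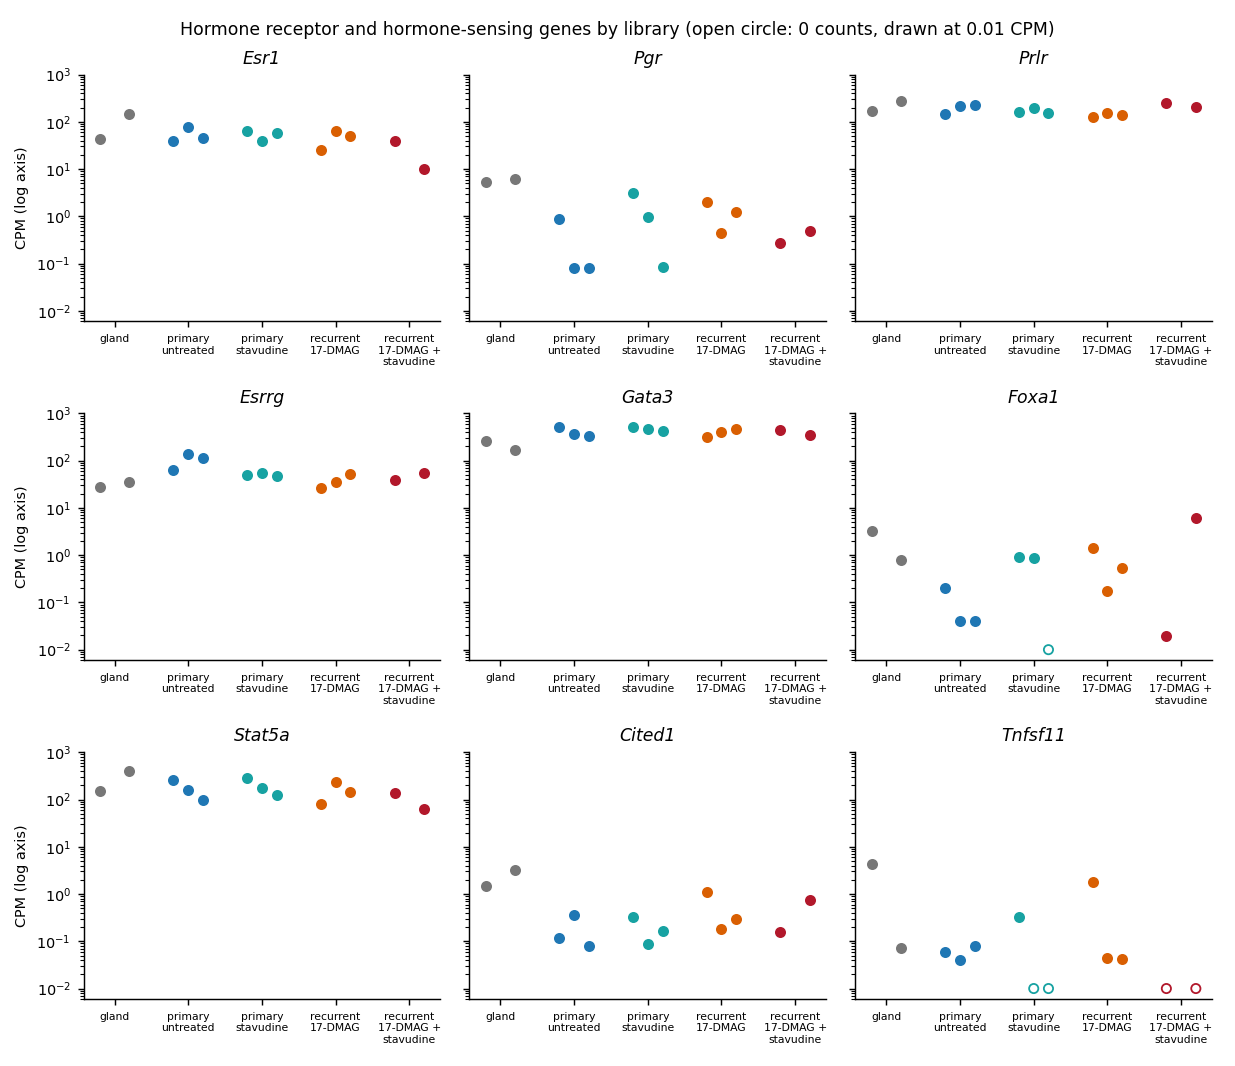
CPM (log axis) of each gene in every library, by group, with 1 point per library. Open circles are libraries with 0 counts, drawn at 0.01 CPM. Gata3 and Prlr vary within a narrow band, all tumors are below both glands for Pgr and Cited1, and Foxa1 reaches 6.14 CPM in recurrent 17-DMAG plus stavudine replicate 2.

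The promoters of the 4 genes that separated most from the glands or varied most among tumors are shown as the windows that were searched for short motifs through which hormone receptors and their partners bind DNA. Each runs from 250 bases before to 50 bases after the RefSeq start (GRCm38.p6), 5′ to 3′ on the gene's strand, and capitals mark GGTCA, the estrogen response element half-site, or GTAAACA, a forkhead motif, on either strand; these matches do not overlap each other. The windows are chr2:9878551-9878850 (minus strand) for Gata3, chr9:8899583-8899882 (plus strand) for Pgr, chr12:57546062-57546361 (minus strand) for Foxa1 and chrX:102252132-102252431 (minus strand) for the first of the starts of Cited1.
Gata3: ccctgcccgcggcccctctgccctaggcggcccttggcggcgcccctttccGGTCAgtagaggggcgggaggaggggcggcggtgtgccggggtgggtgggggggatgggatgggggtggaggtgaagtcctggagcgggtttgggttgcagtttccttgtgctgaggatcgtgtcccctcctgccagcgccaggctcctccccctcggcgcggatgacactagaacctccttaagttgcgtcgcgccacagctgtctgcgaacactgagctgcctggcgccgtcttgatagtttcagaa
Pgr: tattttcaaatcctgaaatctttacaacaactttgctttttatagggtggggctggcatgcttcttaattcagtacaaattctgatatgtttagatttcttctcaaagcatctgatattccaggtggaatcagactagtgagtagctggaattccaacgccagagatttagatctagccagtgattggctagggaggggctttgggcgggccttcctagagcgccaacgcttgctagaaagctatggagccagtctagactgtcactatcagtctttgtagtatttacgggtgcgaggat
Foxa1: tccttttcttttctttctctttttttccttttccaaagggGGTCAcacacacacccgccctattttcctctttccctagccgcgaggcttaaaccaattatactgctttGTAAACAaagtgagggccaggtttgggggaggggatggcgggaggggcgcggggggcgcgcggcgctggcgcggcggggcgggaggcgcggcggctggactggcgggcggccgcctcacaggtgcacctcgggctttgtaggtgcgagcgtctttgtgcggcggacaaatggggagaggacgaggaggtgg
Cited1: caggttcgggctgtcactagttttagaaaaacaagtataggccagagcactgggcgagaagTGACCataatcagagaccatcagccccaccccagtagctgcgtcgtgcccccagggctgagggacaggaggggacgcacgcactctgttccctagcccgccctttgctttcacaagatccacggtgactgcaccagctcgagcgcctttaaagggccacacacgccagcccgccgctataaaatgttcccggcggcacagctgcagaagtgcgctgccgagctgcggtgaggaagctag
The Gata3, Foxa1 and Cited1 windows each held 1 half-site, 199, 210 and 189 bases before the start counting to the motif's first base, and the Pgr window held none of the motifs searched. A half-site was found in 40.5% of 32851 promoter windows of this length, so its presence does not set these genes apart. Foxa1 had in addition a forkhead motif 141 bases before its start, which 3.65% of windows hold. The full estrogen response element, a half-site followed after 3 bases of any kind by its reverse complement, was in 0.0700% of all windows and in 0 of the 18 windows of the 9 genes. The motif of GATA factors searched, AGATAA, was in 11.2% of all windows and also in 0 of the 18. TTCNNNGAA, the STAT5 motif, was in the second window of Esr1 and the second of Prlr, and in 8.30% of all windows. The GC content was 67.3% for Gata3, 62.3% for Foxa1, 59.7% for Cited1 and 43.7% for Pgr, against a median of 52.7% over all windows.

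Primary untreated tumors alone were then compared with the glands. Esrrg was the 1 gene of 9 called, with all 3 tumors above both glands, at 103 ± 37.3 CPM (SD, n = 3) against 31.8 ± 5.81 CPM (SD, n = 2), which gave 1.70 on the log2 scale (SE 0.36, edgeR's adjusted p = 0.0468). Of all genes, 48 were called higher (0.280%) and 313 lower (1.83%). This call rested on single libraries: it was lost without any one of 11 of the 13, among them primary untreated replicates 2 (1.45, adjusted p = 0.152) and 3 (1.64, adjusted p = 0.175), and was kept without gland replicate 1 or recurrent 17-DMAG replicate 1, with values between 1.45 and 1.99 throughout. Esrrg and Gata3 were above both glands in all 3 tumors, where 18.8% of all genes were, and Pgr, Foxa1 and Cited1 were below both, where 20.4% were. Their log2 fold changes were 0.90 (SE 0.27, adjusted p = 0.0866, edgeR) for Gata3, -3.64 (SE 1.01, 0.0758) for Cited1, -3.99 (SE 1.31, 0.107) for Pgr and -4.39 (SE 1.89, 0.186) for Foxa1. DESeq2 called Esrrg, Gata3, Cited1 and Pgr, but it also called many more of all genes than edgeR did. The edgeR shares above are therefore not the background for these 4 calls, and the DESeq2 number is given with the processing alternatives.

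The 4 tumor groups were compared with each other in 6 contrasts, over 16870 genes and 11 tumors. The question was whether stavudine or regrowth under continued 17-DMAG went with a change in hormone-related genes. No contrast gave a call by edgeR among the 9 genes (0 of 9) or among all genes (0, or 0%, in each contrast). DESeq2 called 1 of the 9 in 1 contrast and limma voom called 0 in all. Unadjusted p-values under 0.05 fell on Esrrg, Prlr and Tnfsf11 only, and their sizes follow.

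In primary tumors, stavudine was compared with none. Esrrg was lower with stavudine, and its groups did not overlap: 62.5, 136 and 111 CPM without and 49.9, 55.0 and 46.5 CPM with stavudine. The log2 difference of -1.05 (SE 0.31) had an unadjusted p of 0.00773 by edgeR and an adjusted p of 1.00. It was the 1 of 9 genes with an unadjusted p under 0.05, where 3.76% of all genes had one, and the 1 of 9 whose groups did not overlap, where 10.8% of all genes did not.

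Recurrent 17-DMAG tumors were compared with primary untreated tumors. Esrrg was again lower, at 26.7, 35.3 and 51.4 against 62.5, 136 and 111 CPM, with no overlap. The log2 difference was -1.47 (SE 0.31, unadjusted p = 0.00102, adjusted p = 0.509, edgeR), rank 12 of all genes, and DESeq2 gave an adjusted p of 0.0118. Without any one tumor the difference lay between -1.76 and -1.20, with adjusted p-values from 0.163 to 0.841. Prlr differed by -0.52 (SE 0.18, unadjusted p = 0.0186, adjusted p = 0.509, edgeR) with overlapping groups. These were 2 of 9 genes with an unadjusted p under 0.05, against 9.69% of all genes, and Esrrg was the 1 of 9 with separate groups, against 15.1%. Both Esrrg differences use the same 3 primary untreated tumors, the group with the highest mean, 103 CPM. The means of the other tumor groups were 50.5 ± 4.26 (SD, n = 3) in primary stavudine, 46.2 ± 11.1 (SD, n = 2) in recurrent 17-DMAG plus stavudine and 37.8 ± 12.5 CPM (SD, n = 3) in recurrent 17-DMAG tumors, and the values of these 3 groups overlapped one another.

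Under stavudine, recurrent tumors were compared with primary tumors. Prlr was higher in recurrent tumors, 250.5 and 209 against 158, 194 and 150 CPM, with no overlap and a log2 difference of 0.46 (SE 0.20, unadjusted p = 0.0471, adjusted p = 0.491, edgeR). It was the 1 of 9 in each respect, where 10.1% of all genes had such a p and 35.3% had separate groups.

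Recurrent tumors with and without stavudine were compared next. Prlr was higher with stavudine, 250.5 and 209 against 127, 156 and 138 CPM. The groups did not overlap, and the log2 difference was 0.72 (SE 0.20, unadjusted p = 0.00558, adjusted p = 0.392, edgeR). It was 0.57 without recurrent 17-DMAG plus stavudine replicate 1 and 0.84 without replicate 2, each a comparison with a single tumor. Tnfsf11, with 0 and 0 counts against 76, 2 and 2, had an unadjusted p of 0.0409 (edgeR), but both groups reached down to the level a count of 0 allows and no fold is given. These 2 of 9 genes compare with 7.84% of all genes at such a p. The same 2 of 9 had groups that did not overlap, against 21.5% of all genes. Of these 2, only Prlr was above the level a count of 0 allows. Recurrent 17-DMAG plus stavudine replicate 2 and recurrent 17-DMAG replicate 1 also differed in tissue makeup: skeletal muscle markers were at 1946 CPM in the first and fibroblast markers at 5641 CPM in the second, the highest values among tumors. Their part in these results was not tested.

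Over both water arms, 5 recurrent tumors were compared with 6 primary tumors. Esrrg differed by -0.79 on the log2 scale (SE 0.23, unadjusted p = 0.00751, adjusted p = 0.295, edgeR) with overlapping values, the 1 of 9 genes at such a p, where 13.6% of all genes were. None of the 9 had values that separated the 5 from the 6 (1.34% of all genes did). The test of whether recurrence acted differently with and without stavudine, the interaction, gave 0.98 for Prlr (SE 0.27, unadjusted p = 0.00531, adjusted p = 0.471, edgeR) and 1.34 for Esrrg (SE 0.46, unadjusted p = 0.0161, adjusted p = 0.538). For Prlr the recurrence difference was -0.52 without and 0.46 with stavudine, and for Esrrg it was -1.47 and -0.12. These were 2 of 9 genes at an unadjusted p under 0.05, against 7.84% of all genes.

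The 9 genes differed widely in how much they varied between tumors. Over the 11 tumors, the SD of log2 CPM was 2.24 for Foxa1, which exceeded that of 99.2% of genes, 1.65 for Pgr, 1.64 for Tnfsf11 and 1.03 for Cited1, and low counts widen such values. It was 0.82 for Esr1, 0.70 for Stat5a and 0.68 for Esrrg, and 0.33 for Prlr and 0.25 for Gata3, against a median of 0.37 over all genes. Recurrent 17-DMAG plus stavudine replicate 2 had the lowest Esr1 (10.0 CPM) and Stat5a (62.0 CPM) and the highest Foxa1 (6.14 CPM) of all tumors. It also had the lowest sum of luminal epithelium markers, 1431 CPM against 2296 to 2983 in the other tumors, and the highest of basal and myoepithelial markers, 363.5 CPM, whose part in these values was not tested. Recurrent 17-DMAG replicate 1 had the highest Cited1 and Tnfsf11 and the lowest Gata3, Prlr and Esrrg of all tumors.

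Of the 36 pairs among the 9 genes, the 4 with the largest r in size are given. Stat5a followed Gata3 (Pearson r = 0.81, Spearman rho = 0.80, n = 11 tumors) and Pgr followed Foxa1 (r = 0.71, rho = 0.77), with r of 0.69 and 0.91 when the 2 tumors farthest from the median of Gata3 or Foxa1 were left out. Esr1 and Foxa1 ran opposite (r = -0.70, rho = -0.50), which rested on recurrent 17-DMAG plus stavudine replicate 2 and recurrent 17-DMAG replicate 1, since r was -0.12 without them. The same held for Esr1 and Stat5a (r = 0.71, rho = 0.49), with r = 0.17 without these 2 tumors. These values describe points that share a library and its depth, and Foxa1 was at or under 3 counts in 4 tumors.

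**Figure D4:**
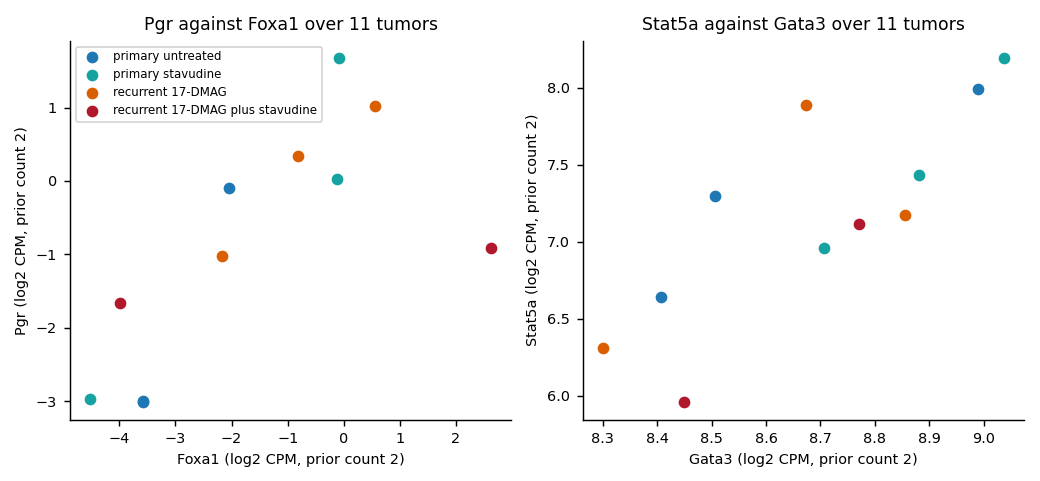
Log2 CPM (prior count 2) of Pgr against Foxa1 (left) and of Stat5a against Gata3 (right), with 1 point per tumor colored by group. Pgr rises with Foxa1 and Stat5a with Gata3, and 2 primary untreated tumors lie on the same spot on the left.

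Over 12692 genes whose mean log2 CPM was 1 or more, the patterns most like each gene over the 11 tumors were as follows. Esrrg was closest to Grk4 (r = 0.97), to 9330162B11Rik (r = 0.97), an antisense transcript within the Esrrg gene that shares none of its exon bases, and to Ccser1 (r = 0.96). Prlr was closest to Mkx, Tug1 and Tmem62 (r from 0.90 to 0.91), Gata3 to Stk11, Nt5dc1 and Plce1 (0.91 to 0.92), Stat5a to Acpp, Prps1 and Lsm11 (0.90 to 0.92) and Esr1 to Ppl and Mapk8 (both 0.93). The low genes were closest to Rcor2, Armcx4 and Gnl1 for Cited1 (0.91 to 0.94), Npr3, Adcy5 and Megf9 for Foxa1 (0.86 to 0.89), Ythdc2, Rps19bp1 and Psmd13 for Pgr (0.83 to 0.85) and Crnkl1, Rtca and Tax1bp1 for Tnfsf11 (0.94 to 0.98). The Tnfsf11 values rested on few tumors, since 8 of 11 had 3 counts or fewer and 1 had 76, and r with Tax1bp1 was 0.44 (rho = 0.62 over all 11) without the 2 tumors farthest from the median. Whether counting used the strand is not given in the sources used here, so reads of Esrrg introns and of its antisense partner cannot be told apart.

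The wider pathways were described by 5 lists, in the comparison of all tumors with the glands. Over all genes tested, 8.81% were called lower and 1.60% higher, the shares against which calls in these lists and in the marker lists are read. In the progesterone and RANK ligand axis, 3 of 7 genes fell, 0 rose and all 7 log2 fold changes were below 0, with a median of -2.45 against -0.022 over all genes. Basal and myoepithelial markers were also lower in tumors, with 6 of 9 called, and summed to 416 and 1095 CPM in the glands and 44.6 to 363.5 CPM in tumors; their part in these values was not tested. Wnt4, the Wnt ligand induced by progesterone, was at 4.79 and 3.43 CPM in the glands and 0.469 to 3.38 in tumors, with a change of -2.03 on the log2 scale (SE 0.45, edgeR's adjusted p = 0.0194). Its call was lost without either gland (-1.73 and -2.16). Calca and Rspo1, encoding calcitonin and a Wnt amplifier, were called lower (adjusted p = 0.0252 and 0.0362, edgeR), but both were low in gland replicate 2. They were at 10.1 and 38.2 CPM in gland replicate 1 and 0.143 and 0.285 in gland replicate 2, and without gland replicate 1 their log2 fold changes were -1.16 and 0.018. In all, the Calca call was lost without any one of 3 libraries and the Rspo1 call without any one of 9.

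**Figure D5:**
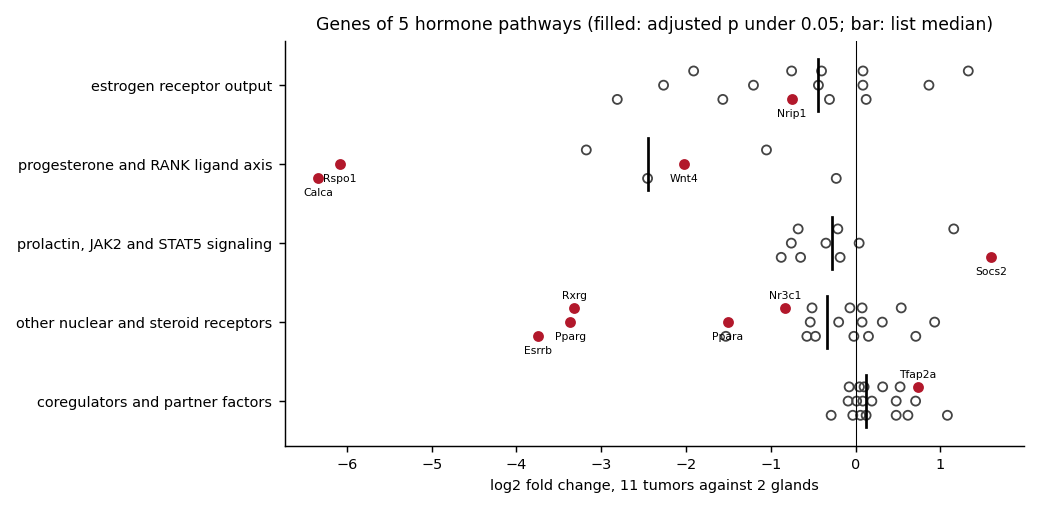
Log2 fold change of 11 tumors against 2 glands for the genes of 5 hormone pathway lists, with 1 point per gene, filled red where the adjusted p is under 0.05 and named. Vertical bars are list medians; that of the progesterone and RANK ligand axis is -2.45 and the other 4 lie between -0.44 and 0.12.

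Estrogen receptor output had 15 of 16 genes tested, with 1 lower and 0 higher, where 8.81% of all genes were called lower and 1.60% higher. The called gene was Nrip1, an estrogen-induced corepressor, at 59.0 and 94.0 CPM in glands and 38.2 to 61.5 in tumors (log2 fold change -0.75, SE 0.16, adjusted p = 0.0169, edgeR), and -0.29 without gland replicate 2. The list's median was -0.44. Prolactin, JAK2 and STAT5 signaling had 1 of 10 genes higher, the STAT5-induced inhibitor Socs2, at 227 and 64.5 CPM in glands and 276 to 637 CPM in tumors (log2 fold change 1.60, SE 0.42, adjusted p = 0.0397, edgeR). Its call was lost without any one of 11 libraries and the value was 1.04 without gland replicate 2.

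Of the other nuclear and steroid receptors, 5 of 20 fell and 0 rose, where 8.81% of all genes were called lower and 1.60% higher. Pparg, the receptor that directs fat cell formation, was at 20.8 and 22.4 CPM in glands and 0.506 to 4.34 in tumors (log2 fold change -3.37, SE 0.53, adjusted p = 0.00499, edgeR), a call kept without any one library. The adipocyte markers given above were also lower in tumors, and their part in the Pparg values was not tested. Ppara (-1.51), Esrrb (-3.74), the glucocorticoid receptor gene Nr3c1 (-0.83) and Rxrg (-3.32) were also called. Rxrg was not low in all tumors: it was at 1.56 and 1.78 CPM in the glands, 0.279, 2.57 and 1.74 CPM in primary untreated tumors and 0 to 0.168 CPM in the 8 others. Without gland replicate 2 the calls of Ppara (adjusted p = 0.169, edgeR), Esrrb (-3.32, 0.215) and Nr3c1 (-0.063, 0.887) were lost. That of Esrrb was also lost without recurrent 17-DMAG plus stavudine replicate 1 (-3.47, 0.0525), and that of Nr3c1 without any one of 10 libraries in all. Among coregulators and partner factors 1 of 19 was higher, Tfap2a, at 79.1 and 49.9 CPM in glands and 90.1 to 124 in tumors (0.74, SE 0.17, adjusted p = 0.0239), lost without gland replicate 2 (0.53). Of the 3 markers of hormone-sensing luminal cells beside the 9 genes, Tph1 (-3.43) and Ly6a (-4.40) were lower and Prom1 was at 1.77 (adjusted p = 0.154, edgeR). Without gland replicate 2, Tph1 was at -3.02 (adjusted p = 0.0543, edgeR) and Ly6a at -1.75 (0.416). Of 6 luminal progenitor genes 1 rose and 1 fell. Elf5, which directs alveolar and progenitor cells, was lower (-1.80, adjusted p = 0.0134, edgeR) and was at -0.56 without gland replicate 2, while Sox10 was higher (0.71, adjusted p = 0.0395, edgeR), a call lost without any one of 10 libraries. Krt19 was the 1 of 9 luminal epithelium genes called lower, at -5.79 (adjusted p = 0.00924, edgeR) and not called without gland replicate 2 (-4.75). Most of that list went the other way. Its median was 0.62 with 2 of 9 genes below 0, and every tumor was above both glands for 3 and below both for 1. In primary untreated tumors alone, Nrip1 (-0.90), Wnt4 (-2.88) and Tph1 (-3.81) were called lower, with adjusted p-values of 0.0476, 0.0470 and 0.0468 (edgeR), and each call was lost without any one of 10 or 11 libraries.

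Between the tumor groups 0 genes of these lists were called. Log2 differences of genes with separate groups and an unadjusted p under 0.05 (edgeR) included Cxcl12 (1.61) and Wnt4 (1.57) in recurrent 17-DMAG against primary untreated tumors. Cxcl12 was at 2.49 without primary untreated replicate 1, and Wnt4 at 0.57 without recurrent 17-DMAG replicate 1, the tumor at 3.38 CPM. Under stavudine, recurrent against primary tumors gave Socs2 (-0.92) and Ghr, the growth hormone receptor gene (0.89), which was at 0.12 without recurrent 17-DMAG plus stavudine replicate 2 and 1.37 without replicate 1. In recurrent tumors with against without stavudine, Igf1r was at -1.20 and Bcl2 at 0.59. Igf1r was at -2.05 without recurrent 17-DMAG plus stavudine replicate 1 and -0.68 without replicate 2. The adjusted p-values of these 6 values ran from 0.384 to 0.607.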

How the data were processed

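Total RNA of frozen tissue was depleted of ribosomal RNA and sequenced with a kit that marks strand. The authors aligned reads to mm10/GRCm38 with STAR (version not given in the sources used here), counted them per gene with featureCounts of Subread 1.6.2 and deposited raw counts for 13 libraries. Here, counts were filtered with filterByExpr, scaled by TMM and tested with edgeR 4.0.16 quasi-likelihood fits (R 4.3.3): 17135 genes over 13 libraries for comparisons with glands, and 16870 genes over 11 tumors for the rest. P-values were adjusted by Benjamini-Hochberg over all genes and called under 0.05. Alternatives used DESeq2 1.42.0, limma 3.58.1 voom and others. On simulated data of the tumors-against-glands design, 68.5% of 200 genes changed by 2 on the log2 scale were recovered with 4 false calls. At the same size, 61% were recovered with 7 false calls for recurrent 17-DMAG against primary untreated tumors. Over both water arms it was 91% with 12. Smaller changes were not simulated. Whether these rates hold for the deposited libraries, whose glands differed from each other, was not tested. Levels per length used the longest GENCODE M21 transcript of a symbol among those with a RefSeq match (23080 of 24421 symbols matched). Promoters are from RefSeq (GRCm38.p6). The 9 genes and all lists were chosen with earlier results of these data known, and other genes were named by rule: up to 4 called per list, otherwise up to 2 with separate groups and the smallest unadjusted p, and the 3 highest r per gene. Log2 CPM used a prior count of 2. Mapping of libraries to groups followed the labels; 0 samples were left out. Intervals for 0 counts cover counting error only. Exons of Gata3 share 77 bases, and those of Stat5a 72 bases, with a neighboring gene. Some genes that this rule names are not reported here.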

Additional observations from a re-analysis of the deposited data

How the results depend on the processing

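DESeq2 called more genes than edgeR: 3242 for all tumors against glands, 2352 (4 of the 9 hormone genes) for primary untreated tumors against glands, 17 for stavudine in primary tumors, 61 (1 of 9, Esrrg) for recurrent 17-DMAG against primary untreated, 331 for recurrence under stavudine, 266 for stavudine in recurrent tumors, 410 over both water arms and 189 for the interaction. Against all tumors and primary untreated tumors, edgeR called 285 and 0 genes without the 3 tumors with the most muscle counts, and 489 and 19 with library totals in place of TMM, a setting added after seeing the data, with 0 of the 9 in each. That scaling moved the median of all genes to 0.37 and left 8 of 489 calls higher against 275 of 1785, and Prlr reversed to 0.23 and 0.36. With DESeq2, 1079 of 3242 calls were higher. The DESeq2 fits were given the same genes as the edgeR fits, 17135 with the glands and 16870 among tumors. Without the 3 muscle-rich tumors, Prlr was at 0.032 in primary untreated tumors and 1 gene was called in recurrent 17-DMAG against primary untreated tumors. Fits on the compared groups alone called 0 genes (0 of 9) in primary untreated tumors against glands and 2 in recurrence under stavudine.

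Replicate numbers are shared between groups in the labels. With a replicate block, 371 genes (0 of 9) were called in tumors against glands and 4 (0 of 9) in primary untreated tumors against glands. The 15 pairs of tumors with the same number had correlations of their deviations from -0.22 to 0.22, 3 of them over 0.1, and 1 of 11 tumors correlated best with its own number. The numbers were not taken to pair samples. Deviations were taken from the means of small groups, so these correlations depend on one another and cannot exclude pairing.

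Leaving out 1 library at a time, calls ran from 535 to 4255 genes and 0 to 4 of the 9 in tumors against glands, from 0 to 3381 and 0 to 3 in primary untreated tumors against glands, and from 0 to 1, 0 to 100, 0 to 141, 0 to 6 and 0 to 77 genes, with 0 of the 9 throughout, in recurrent 17-DMAG against primary untreated, recurrence under stavudine, stavudine in recurrent tumors, both arms and the interaction; stavudine in primary tumors stayed at 0. Over all tumors, Esr1 ran from -1.75 to 0.052, Prlr from -0.59 to 0.21 and Stat5a from -1.39 to 0.079, and in primary untreated tumors from -1.41 to 0.41, -0.46 to 0.36 and -1.22 to 0.27, each reversed without gland replicate 2, and Prlr was at 0.012 without primary untreated replicate 1. Rspo1 ran from -7.88 to 0.018, reversed without gland replicate 1. The causes were not tested. The 2 glands and 2 to 3 tumors per group, and counts of 4 or fewer for Pgr, Foxa1, Cited1 and Tnfsf11 in several tumors, limit what could be detected.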

Other observations

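The values of 2 further receptor genes, chosen after their values were seen, were as follows. Esr2, estrogen receptor beta, was at 1.33 and 1.32 CPM in the glands and 0.916 to 7.77 CPM in tumors (log2 fold change 0.93, adjusted p = 0.355, edgeR). Tnfrsf11a, which encodes RANK, the receptor for the product of Tnfsf11, was at 142 and 245 CPM in the glands and 124 to 199.6 CPM in tumors (log2 fold change -0.23, adjusted p = 0.484, edgeR). Tnfrsf11a had at least 6021 counts in every library, including the 4 tumors in which Tnfsf11 had 0.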
